A study of Mus musculus with 4 samples.

Results

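The 10 genes described here encode the enzymes that make and break down polyamines and the proteins that control the first enzyme, ornithine decarboxylase. They were taken by symbol from a table of 23481 genes counted by RNA sequencing in mouse 4T1-T mammary carcinoma cells. They are Odc1, Amd1, Srm and Sms of synthesis, Azin1, Oaz1 and Oaz2 of ornithine decarboxylase control, and Sat1, Smox and Paox of breakdown. All 10 symbols were found, and 8 had enough reads to be tested, Amd1 and Oaz1 being the exceptions. In all libraries the gene Asns, for the enzyme that makes asparagine, had been silenced, and the cells were kept in DMEM. The design set 2 libraries from cells grown without asparagine, named A and B in the labels, against 2 from cells grown with asparagine, also named A and B. The labels give neither the asparagine concentration, nor the time in culture, nor the means of silencing, nor the number of clones, and no unsilenced library was analysed here.

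Polyamines are small, positively charged molecules that bind nucleic acids and are needed for growth and for translation. Ornithine decarboxylase makes putrescine, which receives aminopropyl groups, supplied by S-adenosylmethionine decarboxylase, to become spermidine and then spermine. Antizymes bind ornithine decarboxylase and send it to the proteasome, and their own translation needs a shift of reading frame that polyamines promote. Antizyme inhibitor, a relative of the decarboxylase without its activity, takes up antizyme. Acetylation and oxidation lead back from spermine and spermidine towards putrescine.

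Reads assigned to genes numbered 17977552 and 22581543 in the A and B libraries lacking asparagine, and 23867011 and 30260582 in the A and B libraries given it. Library A without asparagine stood apart: 56.6% of its reads lay outside annotated features and the ribosomal RNA precursor Rn45s took 3.53% of its gene counts, against 46.3% to 49.3% and 0.884% to 1.66% in the other 3 libraries. Asns itself was counted at 75.0 and 89.2 CPM (counts scaled to a common library size, with TMM factors) lacking asparagine, and at 103 and 101 CPM given it, for A and B in turn. Summed mammary epithelial markers, 10 genes, had 1033 to 1068 CPM without asparagine and 842 to 939 CPM with it. Of the 9 tested, 2 were called higher without asparagine (edgeR adjusted p under 0.05, as below), against 0.771% of all genes tested. Leukocyte markers (7 genes, Cd3e at 0 throughout) summed to 1.09 to 1.21 CPM without and 1.13 to 1.67 CPM with asparagine, and endothelial markers (4 genes) to 0.671 to 1.47 CPM without and 1.37 to 1.60 CPM with it. Fibroblast markers (6 genes) summed to 18.5 to 23.3 CPM without and 41.2 to 43.3 CPM with asparagine. Only 1 of the 6 had enough reads to be tested, so these sums rest mostly on 1 gene. That gene was called lower without asparagine, as were 1.07% of all genes tested. The share of these markers in the results below was not tested.

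Amd1, which encodes S-adenosylmethionine decarboxylase, and Oaz1, an antizyme gene expressed across mammalian tissues, were listed with almost no reads, and sequences of both genes have near copies in the genome. Part of the coding sequence of Amd1 (chromosome 10, 40287458 to 40302186, minus strand) is shown beside the intronless gene Amd2 (chromosome 10, 35708675 to 35711892, minus strand), because the 1002 coding bases of each differ at 1 position. The 120 bases around it, positions 736 to 855 of the coding sequence in the GENCODE M21 transcripts (GRCm38), are printed with the differing base in capitals.
Amd1: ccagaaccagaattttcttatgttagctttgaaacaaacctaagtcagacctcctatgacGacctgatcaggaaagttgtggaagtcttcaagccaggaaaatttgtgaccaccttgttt
Amd2: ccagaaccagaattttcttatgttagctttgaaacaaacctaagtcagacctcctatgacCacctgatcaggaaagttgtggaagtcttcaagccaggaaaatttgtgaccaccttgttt

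The site of the frame shift is shown for the antizyme genes, since it is the feature that ties their translation to polyamine levels and since a processed pseudogene carries it too. Oaz1 lies on chromosome 10 from 80826656 to 80829290 and Oaz2 on chromosome 9 from 65668001 to 65690300, both on the plus strand, and Oaz1-ps on chromosome 17 from 17345456 to 17346140 on the minus strand. Each line gives 63 bases of a GENCODE M21 transcript, with the stop codon at which the reading frame shifts in capitals.
Oaz1: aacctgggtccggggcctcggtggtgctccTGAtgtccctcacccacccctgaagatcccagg
Oaz2: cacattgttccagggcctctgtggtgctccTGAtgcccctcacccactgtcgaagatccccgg
Oaz1-ps: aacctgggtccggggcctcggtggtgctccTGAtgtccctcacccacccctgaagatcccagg

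Oaz1 and Oaz1-ps were identical over these 63 bases, and Oaz2 differed from both at 12 of them. All 3 shared the stop codon and the bases just before it, while Oaz2 differed from the other sequences soon after it.

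Amd1 had 0 and 0 reads in the A and B libraries lacking asparagine, and 1 and 0 reads in the A and B libraries given it. Amd2 had 0 reads in every library. A count of 0 allows up to 3 reads, or 0.100 to 0.164 CPM depending on the library, by counting error alone. Of the 50-base windows of the longest Amd1 coding transcript, 87.6% occurred in transcripts of other genes, 86.1% in Amd2. The remaining 390 windows were found in no other GENCODE gene, and with windows of 100 bases the shared part was 76.4%. No level or direction was read for this step of the pathway.

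Oaz1 had 4 and 8 reads in the A and B libraries lacking asparagine, and 5 in each library with it, and was below the filter for testing. Its 50-base windows were shared with Oaz1-ps alone, to 52.2%, and the other 489 windows were found in no other GENCODE gene. With windows of 100 bases the shared part was 41.8%. Oaz1-ps had 0 reads in every library. The microRNA gene Mir1982 overlaps exonic sequence of Oaz1 on the same strand and also had 0 reads in every library. Odc1 shared 42.2% of its windows, spread over 16 other genes, yet had 6441 to 15442 reads. Sms shared 28.7%, mainly with Sms-ps, and Paox 28.9%, mainly with Gm19680. The other 5 genes shared between 0 and 12.0%. Whether reads of Amd1 and Oaz1 were lost in alignment or counting was not tested, and the counts of both are uncertain. A part of the counts of Odc1, Sms and Paox is uncertain because of the shared windows.

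**Figure D1:**
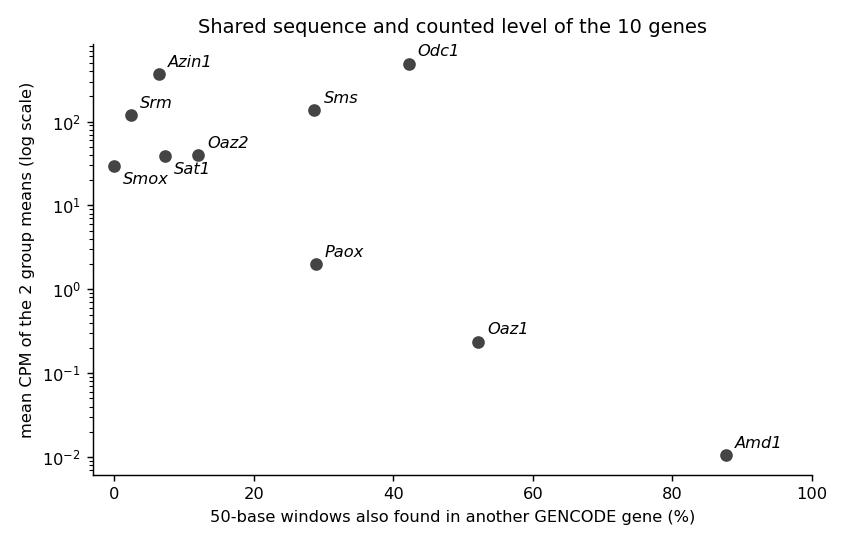
Percent of 50-base windows of each gene's longest coding transcript that also occur in a transcript of another GENCODE M21 gene (x axis), against the mean of the group means in CPM on a log scale (y axis), 1 point for each of the 10 genes. The fewest counted reads are those of Amd1 at 87.6% and Oaz1 at 52.2%, whose counts are uncertain and are not read as levels; Odc1, at 42.2%, has the most.

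None of the 8 tested genes passed the test for a difference between cells without and with asparagine (edgeR quasi-likelihood test, Benjamini-Hochberg adjusted p threshold 0.05 over 12843 genes), where 1.85% of all genes tested passed, 0.771% with higher and 1.07% with lower values without asparagine. DESeq2's Wald test and limma-voom also called 0. At an unadjusted p under 0.05 there were 4 of 8, against 18.1% of all genes. These were Sat1, with higher values without asparagine, and Smox, Oaz2 and Sms, with lower values. They were also the 4 of 8 whose groups did not overlap, against 52.5% of all genes tested, or 1 higher and 3 lower against 26.1% and 26.4%. The median log2 fold change of the 8 genes was -0.11, with 1 above 0 and 7 below, beside 0.01 for all genes tested. In such bulk libraries, a change in the share of cells that express a gene and a change in RNA per cell cannot be told apart. No p-value here goes beyond the spread between these libraries, since nothing in the labels says that they came from separate cultures.

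**Figure D2:**
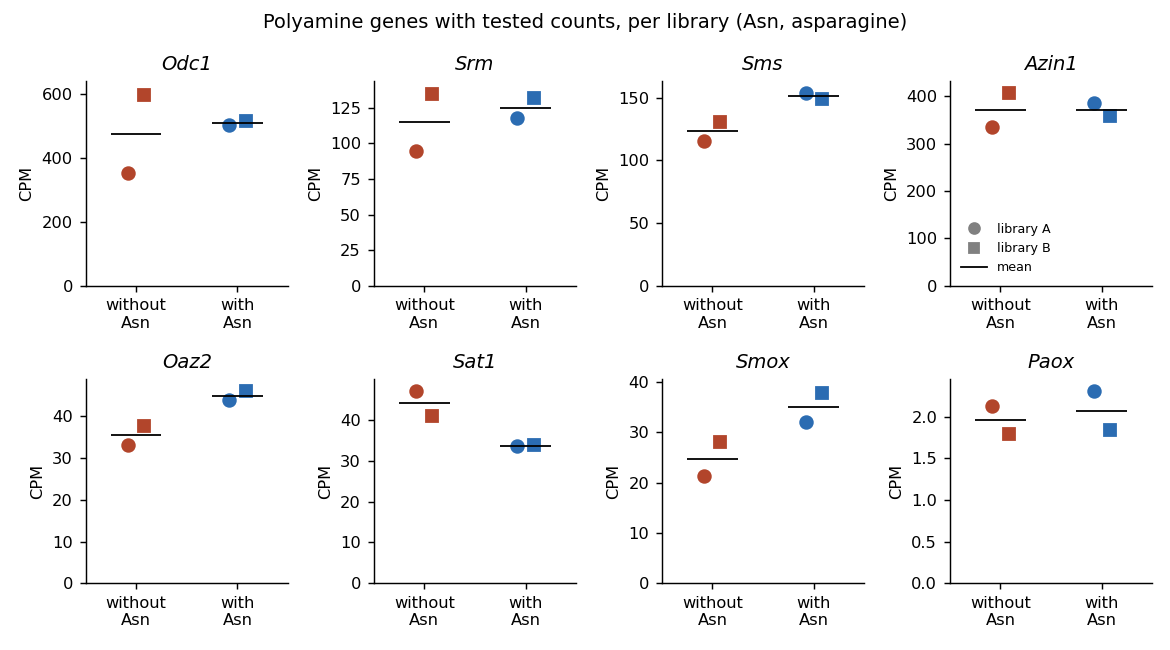
CPM (y axis, from 0) of the 8 tested genes in each library, cells without asparagine on the left and with asparagine on the right of each panel; circles are libraries A, squares libraries B, and lines the means. The groups are apart for Sms, Oaz2, Sat1 and Smox, and the points of Odc1 and Srm lie farther apart without asparagine than with it.

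Odc1, for ornithine decarboxylase, the rate-limiting step (chromosome 12, 17544794 to 17551505), had 351 and 596 CPM in the A and B libraries lacking asparagine and 503 and 515 CPM in the A and B libraries given it. The lowest and the highest of the 4 values were thus both from cells without asparagine. The libraries differed 1.70-fold without asparagine and 1.02-fold with it. The means were 474 ± 174 CPM without and 509 ± 8.60 CPM with asparagine (SD, n = 2 each), and the log2 fold change was -0.10 ± 0.23 (SE, edgeR adjusted p = 0.833, 95% interval -0.64 to 0.43). Leaving out library A of the cells without asparagine turned the direction, to 0.23 (adjusted p = 0.00270), and leaving out library B gave -0.54 (adjusted p = 1.986e-14). The direction of Odc1 therefore rested on which of those 2 libraries was used. Fits with either left out take their spread from the libraries with asparagine, which differed less from each other. Chi-square per degree of freedom between A and B counts was 34.77 without and 3.886 with asparagine. Adjusted p-values of these fits therefore understate the spread without asparagine. In these fits 2061 genes (library A left out) and 5366 genes (library B left out) of the 12843 tested were called, which is the background for every call given below for a library lacking asparagine left out.

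Srm encodes spermidine synthase, which turns putrescine into spermidine (chromosome 4, 148591503 to 148594993). It had 94.4 and 135 CPM in the A and B libraries lacking asparagine, and 118 and 132 CPM in the A and B libraries given it. As for Odc1, library A without asparagine was the lowest and library B the highest, and the groups overlapped. The log2 fold change was -0.12 ± 0.17 (SE, edgeR adjusted p = 0.729, 95% interval -0.53 to 0.29). It was 0.11 (adjusted p = 0.364) when library A without asparagine was left out and -0.41 (adjusted p = 3.375e-06) when library B was.

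Sms encodes spermine synthase, which adds the second aminopropyl group (chromosome X, 157443855 to 157492287). Its values were 116 and 131 CPM in the A and B libraries lacking asparagine, and 154 and 149 CPM in the A and B libraries given it. Both libraries without asparagine lay below both with it. The means were 123 ± 10.6 CPM without and 151 ± 3.29 CPM with asparagine (SD, n = 2 each), for a log2 fold change of -0.29 ± 0.11 (SE, edgeR adjusted p = 0.223, 95% interval -0.55 to -0.04). With a single library lacking asparagine left out it was called, at -0.21 when A was left out (adjusted p = 0.0411) and at -0.39 when B was (adjusted p = 4.597e-06), in fits that take the single library left to vary like the other group. The log2 ratio of Srm to Sms counts was -0.29 and 0.05 in the A and B libraries lacking asparagine, and -0.38 and -0.17 in the A and B libraries given it, so the groups overlapped (exact two-sided permutation p = 0.667, where 0.333 is the smallest p that 2 against 2 libraries allow).

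Of the control genes, Azin1, for antizyme inhibitor (chromosome 15, 38487427 to 38519266), had 335 and 408 CPM in the A and B libraries lacking asparagine, and 386 and 358 CPM in the A and B libraries given it. Its group means were 372 ± 51.5 CPM without and 372 ± 19.3 CPM with asparagine (SD, n = 2 each). The 95% interval of its log2 fold change ran from -0.30 to 0.30, around 0.00 ± 0.13 (SE, edgeR adjusted p = 0.998). Exons of the antisense gene Gm49077 overlap those of Azin1, and reads from this overlap cannot be told apart without a strand setting. Of the 50-base windows of Azin1, 6.43% were shared with Gm49077 and 93.6% were found in no other GENCODE gene.

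Oaz2, an antizyme gene found across tissues, had 33.0 and 37.6 CPM in the A and B libraries lacking asparagine, and 43.8 and 45.9 CPM in the A and B libraries given it. Every library without asparagine was below every library with it. Means of 35.3 ± 3.24 CPM without and 44.9 ± 1.49 CPM with asparagine (SD, n = 2 each) gave a log2 fold change of -0.34 ± 0.12 (SE, edgeR adjusted p = 0.195, 95% interval -0.62 to -0.07). It was called when library B without asparagine was left out (-0.44, adjusted p = 1.526e-04). With so few reads for Oaz1, the log2 ratio of Odc1 to both antizyme genes is in effect a ratio to Oaz2: it was 3.40 and 3.97 in the A and B libraries lacking asparagine, and 3.51 and 3.48 in the A and B libraries given it. The log2 ratio of Odc1 to Azin1 was 0.07 and 0.55 without asparagine and 0.38 and 0.52 with it, in the same order of libraries. For each of these 2 ratios the values without asparagine lay on both sides of those with it (exact two-sided permutation p = 1 for both).

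Sat1, for the acetyltransferase that marks spermidine and spermine for export or oxidation (chromosome X, 155213132 to 155216449), was the 1 tested gene with a positive fold change. It had 46.9 and 41.0 CPM in the A and B libraries lacking asparagine, and 33.5 and 33.7 CPM in the A and B libraries given it. Both values without asparagine were above both with it. The means were 43.9 ± 4.21 CPM without and 33.6 ± 0.191 CPM with asparagine (SD, n = 2 each), for a log2 fold change of 0.39 ± 0.12 (SE, edgeR adjusted p = 0.166, 95% interval 0.11 to 0.66). Leaving out library A or B without asparagine gave 0.29 and 0.48, both called (adjusted p = 0.0344 and 2.039e-05), and leaving out a library with asparagine did not make it a call.

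Smox encodes spermine oxidase, which turns spermine back into spermidine and releases hydrogen peroxide (chromosome 2, 131491496 to 131525922). It had 21.3 and 28.1 CPM in the A and B libraries lacking asparagine, and 32.1 and 37.9 CPM in the A and B libraries given it. The groups did not overlap, and this was the largest fold change among the 8 genes. The means were 24.7 ± 4.83 CPM without and 35.0 ± 4.12 CPM with asparagine (SD, n = 2 each), for a log2 fold change of -0.50 ± 0.16 (SE, edgeR adjusted p = 0.188, 95% interval -0.89 to -0.11). Among all genes tested, 86.5% had a smaller change in size. Smox was called in the edgeR fit with no low-count filter (-0.51, adjusted p = 0.0121), which called 1334 genes in all against 237 in the main fit. DESeq2's Wald test (adjusted p = 0.163) and limma-voom (adjusted p = 0.183) did not call it. The log2 fold change was -0.32 and -0.73 when library A or B without asparagine was left out. It was -0.62 and -0.38 when library A or B with asparagine was left out.

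Paox, for the peroxisomal oxidase of acetylated polyamines (chromosome 7, 140115799 to 140137224), was low, at 2.13 and 1.79 CPM in the A and B libraries lacking asparagine, and 2.31 and 1.83 CPM in the A and B libraries given it. These rest on 39 and 40 reads without and 55 and 55 reads with asparagine. The groups overlapped, and the 95% interval of the log2 fold change, -0.71 to 0.55, does not settle a direction. Its exons overlap exons of Echs1 on the opposite strand.

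Sat1 and Smox, whose products both act on spermine, thus had opposite signs. In a ratio chosen after these values were seen, the log2 ratio of Sat1 to Smox counts was 1.14 and 0.54 in the A and B libraries lacking asparagine, and 0.06 and -0.17 in the A and B libraries given it. The ratio was picked for the opposite signs of the 2 genes, so it restates them and is given as a description. Together the 3 breakdown genes took 7.03% and 5.14% of the reads of the 10 genes in the A and B libraries lacking asparagine, and 5.33% and 5.77% in the A and B libraries given it. The widest exact 95% binomial interval, 6.67% to 7.41% in library A without asparagine, covers counting error only. These shares overlapped between the groups (exact two-sided permutation p = 1).

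**Figure D3:**
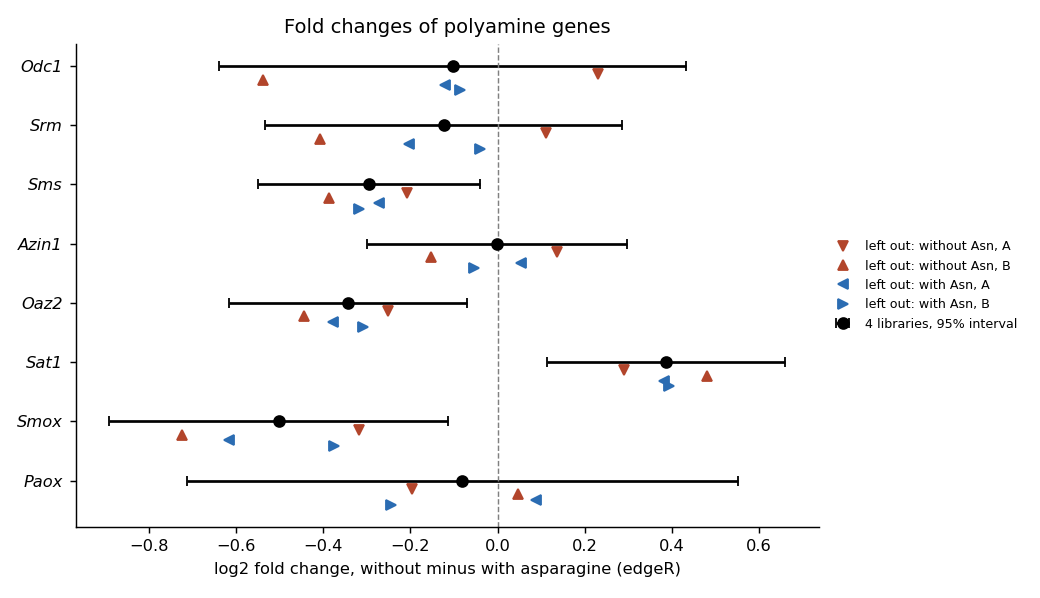
Log2 fold change without minus with asparagine (x axis) of the 8 tested genes; black points and bars are the edgeR estimate from 4 libraries with its 95% interval, and triangles the estimate with 1 library left out. Triangles of Odc1, Srm, Azin1 and Paox fall on both sides of 0, and those of Sms, Oaz2, Sat1 and Smox on 1 side. The groups of these last genes did not overlap, so leaving out 1 library could hardly turn their direction.

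Per kilobase of the longest coding transcript, Odc1 had the highest level of the 8 tested genes, 215 ± 78.6 CPM per kb without and 231 ± 3.90 CPM per kb with asparagine (SD, n = 2 each). Srm followed, at 85.7 ± 21.4 without and 93.4 ± 7.49 CPM per kb with asparagine, and Azin1, at 76.3 ± 10.6 without and 76.3 ± 3.96 CPM per kb with it. Without asparagine the group means of these 2 did not differ beyond their spread. Library by library Srm was the higher, at 70.6 against 68.8 CPM per kb in A and 101 against 83.7 CPM per kb in B. Sms had 33.2 ± 2.84 CPM per kb without and 40.7 ± 0.885 CPM per kb with asparagine, and Sat1 37.8 ± 3.63 and 28.9 ± 0.165 CPM per kb in the same order. Without asparagine, library A had 40.4 CPM per kb for Sat1 and 31.1 CPM per kb for Sms. In library B the 2 were close, at 35.3 CPM per kb for Sat1 and 35.2 CPM per kb for Sms. With asparagine Sat1 was the lower. A part of the Sms count is uncertain, as given above. Oaz2 had 19.2 ± 1.76 CPM per kb without and 24.3 ± 0.809 CPM per kb with asparagine, Smox 10.7 ± 2.10 and 15.2 ± 1.79 CPM per kb, and Paox 0.421 ± 0.0511 and 0.445 ± 0.0724 CPM per kb. Levels of Amd1 and Oaz1 were not placed in this order.

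**Figure D4:**
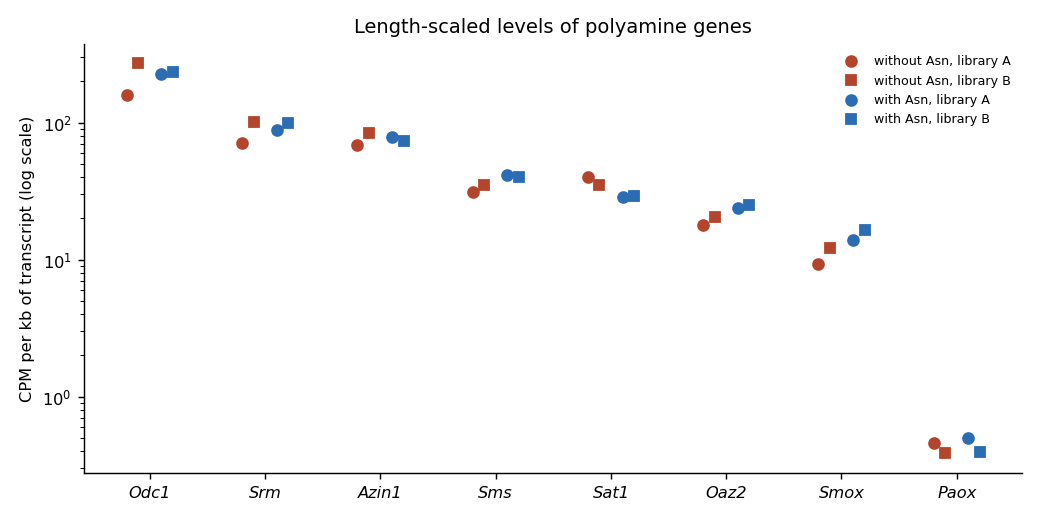
CPM per kilobase of the longest coding transcript (y axis, log scale) for the 8 tested genes in each of the 4 libraries, red for cells without and blue for cells with asparagine, circles for libraries A and squares for libraries B. Levels run from 159 to 270 CPM per kb for Odc1 without asparagine down to under 0.5 CPM per kb for Paox. Amd1 and Oaz1 are left out.

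Upstream sequence is shown for 3 of the 4 genes whose groups did not overlap. For Smox, the upstream window begins inside an annotated exon. RefSeq windows of 250 bases before a start (GRCm38.p6) were found for 8 of the 10 genes, not for Srm and Azin1. They were searched on both strands for CACGTG, the E-box bound by MYC and its partners, for TGATGNAA, the core of the element bound by ATF4 in the amino acid response, and for GGGCGG, the GC box. Capitals in these lines mark matches on either strand. The windows are chrX:157492288-157492537 (minus strand) and chrX:157491373-157491618 (minus strand) for the 2 starts of Sms, the second inside the gene and limited to 246 bases, chr9:65676298-65676547 (plus strand) for Oaz2 and chrX:155216450-155216699 (minus strand) for Sat1. The Oaz2 window also lies inside the annotated gene, which begins at 65668001, so it precedes a start within the gene.
Sms: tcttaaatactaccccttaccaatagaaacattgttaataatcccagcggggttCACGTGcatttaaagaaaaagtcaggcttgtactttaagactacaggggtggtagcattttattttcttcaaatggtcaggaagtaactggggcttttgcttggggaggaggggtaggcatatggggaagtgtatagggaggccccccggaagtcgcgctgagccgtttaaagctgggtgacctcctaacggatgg
Sms, second start: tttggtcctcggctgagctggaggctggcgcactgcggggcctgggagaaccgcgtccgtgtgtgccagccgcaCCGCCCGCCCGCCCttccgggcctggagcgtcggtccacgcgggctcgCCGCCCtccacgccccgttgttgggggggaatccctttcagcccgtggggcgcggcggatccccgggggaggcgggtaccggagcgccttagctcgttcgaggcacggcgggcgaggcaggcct
Oaz2: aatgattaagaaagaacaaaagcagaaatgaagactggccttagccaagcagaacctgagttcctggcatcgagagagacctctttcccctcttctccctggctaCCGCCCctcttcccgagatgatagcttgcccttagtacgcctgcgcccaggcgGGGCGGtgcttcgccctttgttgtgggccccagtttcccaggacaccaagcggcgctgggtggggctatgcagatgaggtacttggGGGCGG
Sat1: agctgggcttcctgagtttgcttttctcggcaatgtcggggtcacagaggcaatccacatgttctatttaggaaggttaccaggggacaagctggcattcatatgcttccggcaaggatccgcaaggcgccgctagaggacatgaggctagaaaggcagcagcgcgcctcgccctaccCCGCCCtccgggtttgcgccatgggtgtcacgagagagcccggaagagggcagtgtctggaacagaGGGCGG

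CACGTG was found for 1 of the 8 genes, Sms, in 1 of its 2 windows, and in 6.02% of all 32851 promoter windows of this length. TGATGNAA was found for none of the 8, and in 3.45% of all windows. GGGCGG was found for 7 of the 8, all but Oaz1, and in 32.7% of all windows. A gene was counted if any of its windows matched, and Sms and Paox have 2 each, while the percentages are of single windows. The 7 include Smox, whose window begins inside an exon, and Oaz2, Paox and Sms, whose matching windows lie inside the annotated genes. A match in these letters is not a bound site, and no match says only that the letters are absent from the window.

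Around the pathway, 45 genes in 6 lists were looked at, of which 35 were tested; Azin2 and Aoc1 were found under the older symbols Adc and Abp1. In all, 1 passed the edgeR test, against 1.85% of all genes, and 8 of 35 had an unadjusted p under 0.05, against 18.1% of all genes. The called gene was Mxi1, which encodes a MAX partner that opposes MYC. Mxi1 had 34.8 and 39.1 CPM in the A and B libraries lacking asparagine, and 60.6 and 59.1 CPM in the A and B libraries given it. It fell by 0.70 on the log2 scale (SE 0.11, edgeR adjusted p = 0.0358). The call was lost when library A or B with asparagine was left out (-0.68 and -0.71, adjusted p = 0.366 and 0.299). Exons of Gm10197 on the opposite strand overlap those of Mxi1. Of the other 8 tested genes of the MYC network none was called. Myc, named after its values were seen, had 719 and 657 CPM in the A and B libraries lacking asparagine, and 485 and 520 CPM in the A and B libraries given it (log2 fold change 0.45, edgeR adjusted p = 0.107, but 0.0342 with DESeq2). The list median was -0.05.

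In methionine recycling, whose first salvage step removes the by-product of spermidine and spermine synthesis, 0 of 10 tested genes were called and the median was -0.06. Mtap, which encodes the phosphorylase of that step, had 897 and 1005 CPM in the A and B libraries lacking asparagine, and 1377 and 1344 CPM in the A and B libraries given it. Both values without asparagine lay below both with it. Its log2 fold change was -0.52 ± 0.11 (SE, edgeR adjusted p = 0.0823), and DESeq2's Wald test called it (adjusted p = 0.00832). Leaving out library A or B without asparagine gave -0.43 and -0.60, both called.

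The hypusine list holds the translation factor genes Eif5a and Eif5a2 and the enzymes, from Dhps and Dohh, that build hypusine on the factor from a part of spermidine. All 4 genes had fold changes above 0 and none was called, with a median of 0.10. Dhps, for the enzyme of the first step, had 8.18 and 9.44 CPM in the A and B libraries lacking asparagine, and 6.94 and 7.61 CPM in the A and B libraries given it (log2 fold change 0.28, edgeR adjusted p = 0.402), and its exons overlap those of Wdr83 on the opposite strand. Eif5a, named after its values were seen, had 417 and 614 CPM in the A and B libraries lacking asparagine, and 464 and 514 CPM in the A and B libraries given it, in overlapping groups, with library A without asparagine lowest and library B highest as for Odc1 and Srm.

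Genes of polyamine transport (5 tested, median -0.01) and of ornithine and arginine supply (4 tested, median 0.02) had 0 called members. Gpc1, for glypican-1, a surface proteoglycan linked to polyamine uptake, had 90.1 and 115 CPM in the A and B libraries lacking asparagine, and 128 and 138 CPM in the A and B libraries given it (log2 fold change -0.37, edgeR adjusted p = 0.230). It was called when library A or B without asparagine was left out (-0.21 and -0.56, adjusted p = 0.0494 and 5.895e-11), and exons of Ankmy1 on the opposite strand overlap its own. Arg1, for arginase, which makes ornithine, had 4.36 and 2.82 CPM in the A and B libraries lacking asparagine, and 3.07 and 2.00 CPM in the A and B libraries given it (log2 fold change 0.50, edgeR adjusted p = 0.429), in overlapping groups. Among 6 relatives of the 10 genes, 3 were tested, none was called and the median was -0.91, on few reads. Sat2, a relative of Sat1, had 5 and 4 reads in the A and B libraries lacking asparagine, and 17 and 19 reads in the A and B libraries given it (edgeR adjusted p = 0.170).

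**Figure D5:**
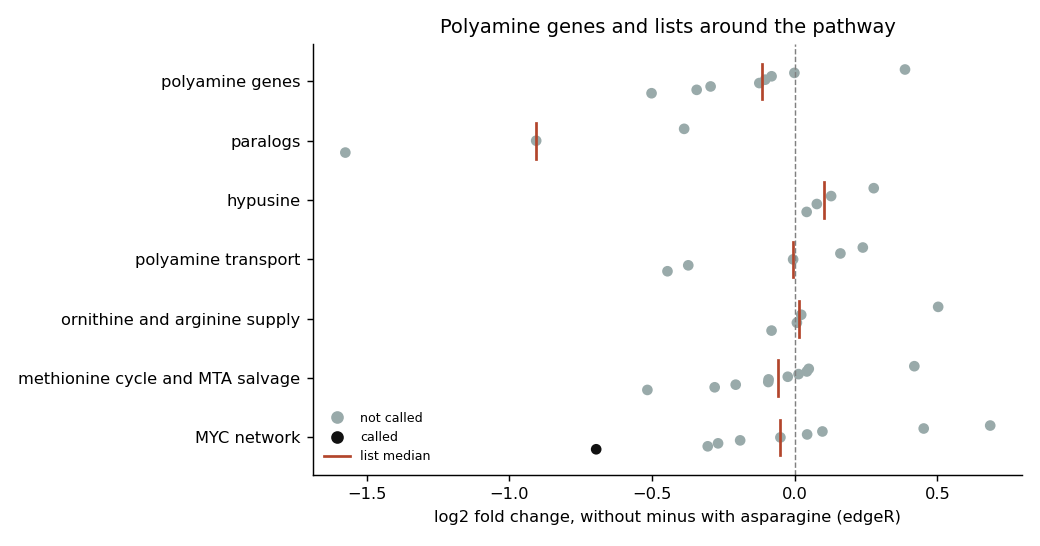
Log2 fold change without minus with asparagine (x axis) of each tested gene in the polyamine set and in 6 lists around it (rows); black points passed the edgeR test, grey points did not, and red lines are the list medians. Mxi1, at -0.70 in the MYC network, is the 1 black point.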

How the data were processed

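The authors deposited unnormalised integer counts, 1 row for each gene symbol, made with Bowtie2 and HTSeq on build mm10, per the submitters' processing notes. RNA was amplified from total RNA with a NuGEN Ovation kit, per the labels' protocols. Versions, annotation, strand setting and read length were not given in the sources used here. HTSeq's 5 summary rows took 60.1% to 70.0% of reads and were left out. HTSeq listed 0 non-unique alignments, so how reads of near-identical copies were handled is unknown.

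Counts passing filterByExpr (minimum count 10, total 15) had TMM factors applied and went into edgeR 4.0.16's quasi-likelihood test with Benjamini-Hochberg adjustment. Fold changes are without minus with asparagine; SE and 95% intervals come from the F statistic. Alternatives used DESeq2 1.42.0, limma-voom 3.58.1, other scalings and filters, the letter as a block, and each library left out. Columns were matched by sample description. Lengths, positions, exon overlaps and shared windows came from GENCODE M21, promoters from RefSeq.

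Members and lists were chosen with earlier results of these data known. Named genes were all 10 members and, of each list, up to 2 called genes with the largest change, or else the gene of lowest p. Myc and Eif5a were added after their values were seen.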

Additional observations from a re-analysis of the deposited data

How the results depend on the processing

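With 4 libraries the common biological coefficient of variation was 11.2%, and 95% intervals of the tested polyamine genes spanned from 0.51 to 1.26 on the log2 scale, which limits what could be called. The count of called polyamine genes, 0, was 1 with no low-count filter, and ranged from 0 to 6 when 1 library was left out. It was 4 with library A lacking asparagine left out, 6 with library B left out, and 0 with either library given asparagine left out. Over all 12843 genes the same fits called 2061, 5366, 67 (library A given asparagine left out) and 59 (library B). In fits with a library left out, its group has 1 library, assumed to vary like the other group. That assumption did not hold: chi-square per degree of freedom between A and B counts was 34.77 without and 3.886 with asparagine. Calls with a library lacking asparagine left out rest on the spread of the tighter group. The count of called genes in the 6 related lists, 1, was 3 with DESeq2's Wald test and 3 with no low-count filter, and ranged from 0 to 14 with 1 library left out. Over all genes, 237 were called, 464 with DESeq2's Wald test, 1334 with no low-count filter, and 59 to 5366 with 1 library left out. Directions reversed for Azin1 with upper quartile scaling (0.043), with the filter of 5 CPM in 2 libraries (0.0057) and when single libraries were left out (-0.15 to 0.14), and on leaving out libraries for Odc1 (-0.54 to 0.23), Srm (-0.41 to 0.11), Paox (-0.24 to 0.089) and Eif5a (-0.23 to 0.33). Sms, Oaz2, Sat1 and Smox kept their direction in every alternative run. Their groups did not overlap, so leaving out 1 library could hardly turn their direction, and those runs add nothing to the lack of overlap.

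The letters were not taken to pair the libraries: across 12843 genes the A minus B differences without and with asparagine had a correlation of 0.123, from 2 pairs only. With the letter as a replicate block, 816 genes were called, 1 of them a polyamine gene, Smox (-0.51, adjusted p = 0.0297), and 1 of the related lists. Causes of these changes were not tested.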
